A study of Mus musculus with 6 samples.

Results

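The genes of the cytosolic ribosomal proteins were followed in haematopoietic stem cells from mouse fetal liver, with and without Uqcrfs1, which encodes RISP, the iron-sulfur subunit of complex III that accepts electrons from ubiquinol. Members were taken by symbol from the deposited table of 23951 genes. They were the symbols that begin with Rpl or Rps and a digit, with Rplp0, Rplp1, Rplp2 and Rpsa, without the 10 Rps6k kinases and the 7 pseudogene symbols. This gave 87 genes, 52 of the large subunit, 34 of the small subunit and Rps19bp1, which encodes a protein that binds Rps19 and is not itself a ribosomal protein. The wild type group (WT) and the RISP knockout group (KO) had 3 libraries each, both of strain C57BL/6. The sources used here do not give the age of the fetuses or what drives the deletion, and no label says whether libraries came from separate embryos. P-values therefore cover the spread among these 6 libraries alone, part of which may be technical. The comparison of KO with WT addresses how this set of transcripts differs in stem cells that lack a catalytic part of the respiratory chain.

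A cytosolic ribosome is built from ribosomal RNA and one copy of most ribosomal proteins, so cells make these proteins in near-equal numbers. Their mRNAs are short and abundant, and typically start with a C followed by a run of pyrimidines (the 5' terminal oligopyrimidine, or TOP, stretch), through which their translation is tied to growth signalling by mTORC1. In blood, loss of one copy of single ribosomal protein genes underlies Diamond-Blackfan anaemia and contributes to the 5q minus syndrome.

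The starts of the members that differed between the groups are shown first, because the TOP stretch at the start is the sequence feature that the family is known for. Each window runs from 15 bases before the start annotated by RefSeq (GRCm38.p6) to 15 bases from it on, 5' to 3' on the gene's strand. Capitals mark the longest stretch of a C followed by at least 4 bases that are each C or T, searched on the gene's strand only.
Rpl4, chr9:64173372-64173401, plus strand: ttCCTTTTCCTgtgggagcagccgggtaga
Rps9, chr7:3704026-3704055, plus strand: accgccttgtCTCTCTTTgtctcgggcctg
Rpl39, chrX:37085208-37085237, minus strand: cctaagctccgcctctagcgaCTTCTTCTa
Rps12, chr10:23787195-23787224, minus strand: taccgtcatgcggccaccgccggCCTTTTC
Rps13, chr7:116334176-116334205, minus strand: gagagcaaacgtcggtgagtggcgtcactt
Rpl37a, chr1:72711245-72711274, plus strand: ttccgctcgccggtctaaaaccgcgcatgc
The windows of Rpl4, Rps9, Rpl39 and Rps12 held such a stretch, and those of Rps13 and Rpl37a did not hold these letters. The search took a stretch anywhere in the window. Relative to the annotated start, the stretches began at -13 (Rpl4), -5 (Rps9), 6 (Rpl39) and 8 (Rps12), so none began at the start itself. The search therefore does not show which of these mRNAs start with a TOP stretch. Of 66 members with an entry in the promoter table, 43 (65.2%) held one, against 10885 of 27025 genes with an entry (40.3%). Rpl32, Rps14, Rps27a and Rps29, which also differed between the groups, had no entry.

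Library totals ranged from 10191354 to 13189329 counts (WT) and from 12020128 to 14590844 (KO). Uqcrfs1 stood at 77.3, 123 and 61.0 CPM (counts scaled to a common library size) in WT replicates 1, 2 and 3 and at 4.33, 3.40 and 3.08 in KO replicates 1, 2 and 3, so each library matched its label. Of 12 blood stem and progenitor markers 5 were lower in KO (edgeR, 41.7%, against 4.99% of all genes) and 0 were higher. The log2 fold changes of 5 of the 12 lay above 0. The summed CPM of the 12 was 2754 to 3344 in WT and 2404 to 2565 in KO. Summed erythroid markers were at 273 to 545 CPM in WT and 82.2 to 132 in KO. Hbb-b1 and Hba-a1 had 0 counts in each library, but the RPKM of Hbb-b1 was 373, 20.2 and 0.00120 in WT and 48.5, 0.000942 and 234 in KO, so globin could not be read from the counts. Summed macrophage markers were at 199 to 1107 CPM in WT, highest in WT replicate 3, and 89.7 to 152 in KO. Summed hepatoblast markers were at 134 to 206 CPM in WT and 66.3 to 120 in KO, with Alb at 9.50 to 30.6 and 2.88 to 19.8. Rn45s, the ribosomal RNA precursor, took 10.5% to 11.7% of counts in WT and 4.96% to 9.92% in KO. The part of these differences in the values below was not tested, and less RNA per cell and fewer cells of a type cannot be told apart in bulk libraries.

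The groups overlapped in the share of all counts taken by the ribosomal protein genes, of which 1 was called higher and 10 lower. They held 9.72%, 10.7% and 9.73% of all counts in WT replicates 1, 2 and 3 and 9.78%, 9.37% and 10.4% in KO replicates 1, 2 and 3. Of the counts other than Rn45s they held 11.005%, 11.960% and 10.965% in WT and 10.856%, 10.040% and 10.959% in KO, where the highest KO library lay just below the lowest WT library. Of the 87 members, 82 passed the filter on low counts and were tested, among them Rpl34, Rps27 and Rpl30 with few counts. Rpl4 was higher in KO and 10 members were lower, at an adjusted p under 0.05 (edgeR quasi-likelihood test, Benjamini-Hochberg over 12204 genes). Higher calls were 1.22% of the members tested, against 6.41% of all genes tested, and lower calls 12.2%, against 4.99%. Calls in either direction made up 11.4% of all genes. The median log2 fold change of the members was -0.14, with 58 of 82 below 0, and that of all genes was -0.02. With an offset for transcript length in each library the members' median was on the other side of 0, at 0.08, and that of all genes stayed at -0.02. In 25 members every KO library lay below every WT library in CPM, and in 7 every KO library lay above, where 14.5% and 15.7% of all genes did so. Of 833 other genes with transcripts under 1000 nt, 185 lay below in this way and 48 above.

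**Figure D1:**
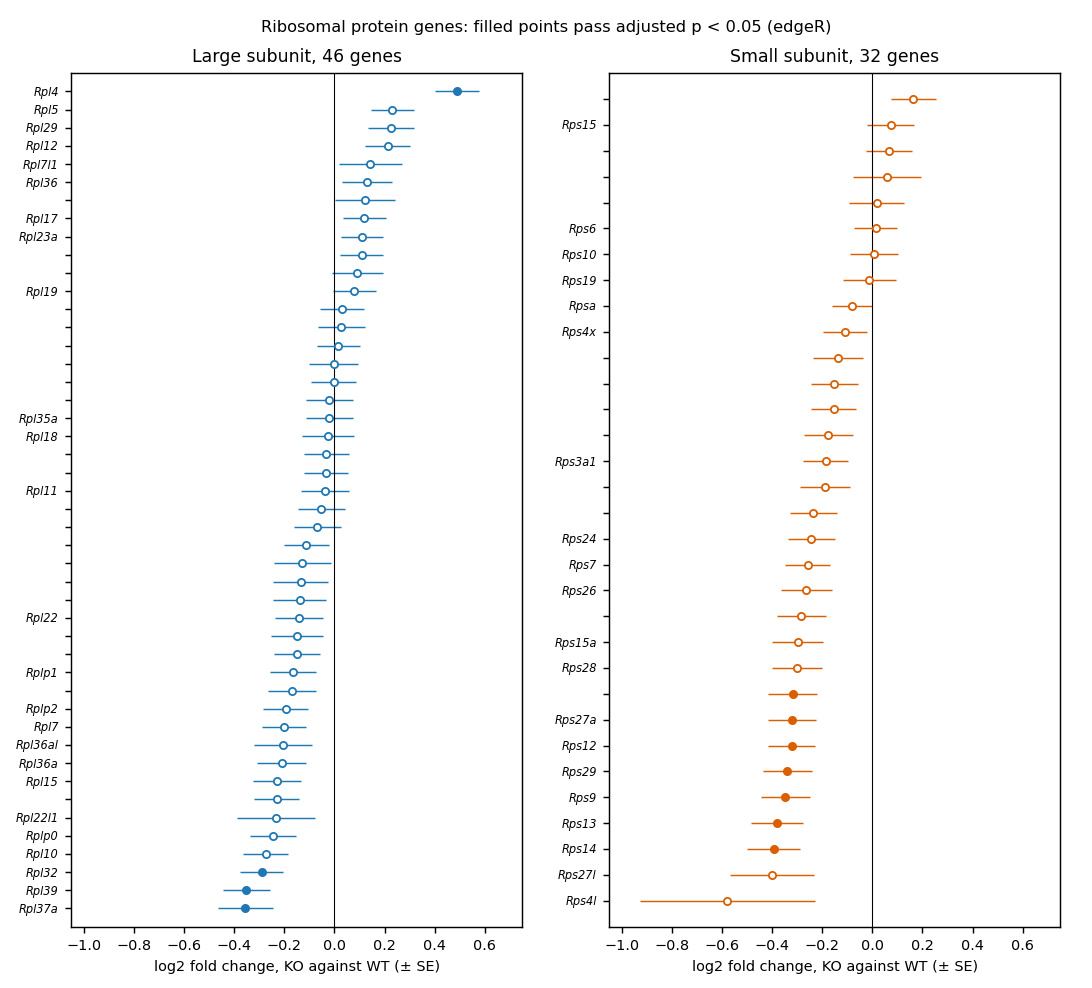
Log2 fold change of KO against WT with its SE for the 46 large subunit and 32 small subunit genes with a mean of at least 20 CPM, ordered by value, with the names of genes described in the text; filled points passed the adjusted p threshold of 0.05 (edgeR). Rpl4 is the one filled point above 0, and 7 of the 10 filled points below 0 are small subunit genes.

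Rpl4 was the only member called higher. Its protein, uL4, lies in the core of the large subunit and sends a long loop to the wall of the tunnel through which the new peptide leaves. Rpl4 had 1853, 2042 and 1681 CPM in WT replicates 1, 2 and 3 and 2684, 2582 and 2564 CPM in KO replicates 1, 2 and 3. The lowest KO library lay above the highest WT library. The group means were 1859 ± 181 and 2610 ± 64.4 CPM (SD, n = 3 each), a log2 fold change of 0.49 (SE 0.09, edgeR, adjusted p = 0.000939). Among the members, Rpl4 alone kept its call in all 6 fits that left out 1 library and in all 9 other settings. Its highest adjusted p was 0.00831 without 1 library and 0.0341 in the other settings, the latter with limma on log2(RPKM + 1).

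Rpl5, which joins Rpl11 and 5S ribosomal RNA in the particle that also binds the p53 regulator MDM2, came next among the large subunit genes. It stood at 2614, 2923 and 2453 CPM in WT and 3198, 3046 and 3136 CPM in KO, with no overlap. Its log2 fold change of 0.23 (SE 0.08) did not pass (edgeR, adjusted p = 0.0839), though it passed with DESeq2 (adjusted p = 0.0257) and without WT replicate 2 (edgeR, adjusted p = 0.0356). Rpl11, the partner of Rpl5, had 905 ± 44.4 CPM in WT against 881 ± 76.8 in KO (SD, n = 3 each), and its groups overlapped. The 5S particle genes thus stood at log2 fold changes of 0.23 and -0.04. Rpl29 at 0.23 and Rpl12 at 0.21 were the other large subunit genes with the largest positive values, and neither passed (edgeR, adjusted p = 0.119 and 0.136). Rps19bp1 had a value of 0.48 at a low level, 21.2 ± 2.06 CPM in WT and 29.5 ± 1.83 CPM in KO, and did not pass either (edgeR, adjusted p = 0.276).

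Of the 10 lower members, 7 belong to the small subunit, among them Rps14, Rps13, Rps9, Rps29, Rps12 and Rps27a. Rps14, the gene tied to the 5q minus syndrome, had 1028, 1180 and 1021 CPM in WT replicates 1, 2 and 3 and 862, 699 and 897 CPM in KO replicates 1, 2 and 3. It was lower in KO by 23.9%, and the groups did not overlap (log2 fold change -0.39, SE 0.11, edgeR adjusted p = 0.0176). Rps13 had 636, 678 and 617 CPM in WT and 529, 434 and 522 CPM in KO (log2 fold change -0.38, adjusted p = 0.0199). Rps9, whose protein uS4 helps to start the assembly of the small subunit and sits at the mRNA entry, had 1033, 1194 and 1097 CPM in WT and 898, 783 and 931 CPM in KO. In these genes WT replicate 2 was the highest library and KO replicate 2 the lowest.

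Rps29, a small zinc-binding protein gene that is mutated in some patients with Diamond-Blackfan anaemia, had 1124, 1298 and 1242 CPM in WT and 973, 868 and 1055 CPM in KO. Rps27a encodes a ribosomal protein fused to ubiquitin and is one of the cell's sources of ubiquitin. Rps27a had 1462, 1656 and 1326 CPM in WT and 1243, 1194 and 1121 CPM in KO. Rps12 stood at a log2 fold change of -0.32, with 1599, 1814 and 1606 CPM in WT and 1463, 1192 and 1358 in KO. In all 3 genes the lowest WT library was above the highest KO library.

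The lower members of the large subunit were Rpl37a, Rpl39 and Rpl32. Rpl39 encodes one of the shortest ribosomal proteins, which lines the exit tunnel near its end. It had 1315, 1514 and 1357 CPM in WT and 1126, 1002 and 1153 CPM in KO (log2 fold change -0.35, SE 0.09, edgeR adjusted p = 0.0173). Rpl37a, a zinc-binding protein gene, had 869, 1080 and 992 CPM in WT and 806, 650 and 844 CPM in KO (edgeR, adjusted p = 0.0396). Rpl32 had 1433, 1401 and 1360 CPM in WT and 1186, 1103 and 1140 CPM in KO (edgeR, adjusted p = 0.0328). Among the called members, the tunnel genes Rpl4 and Rpl39 thus went in opposite directions. With the offset for transcript length Rpl39 was not called (log2 fold change -0.08, edgeR, adjusted p = 0.595).

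**Figure D2:**
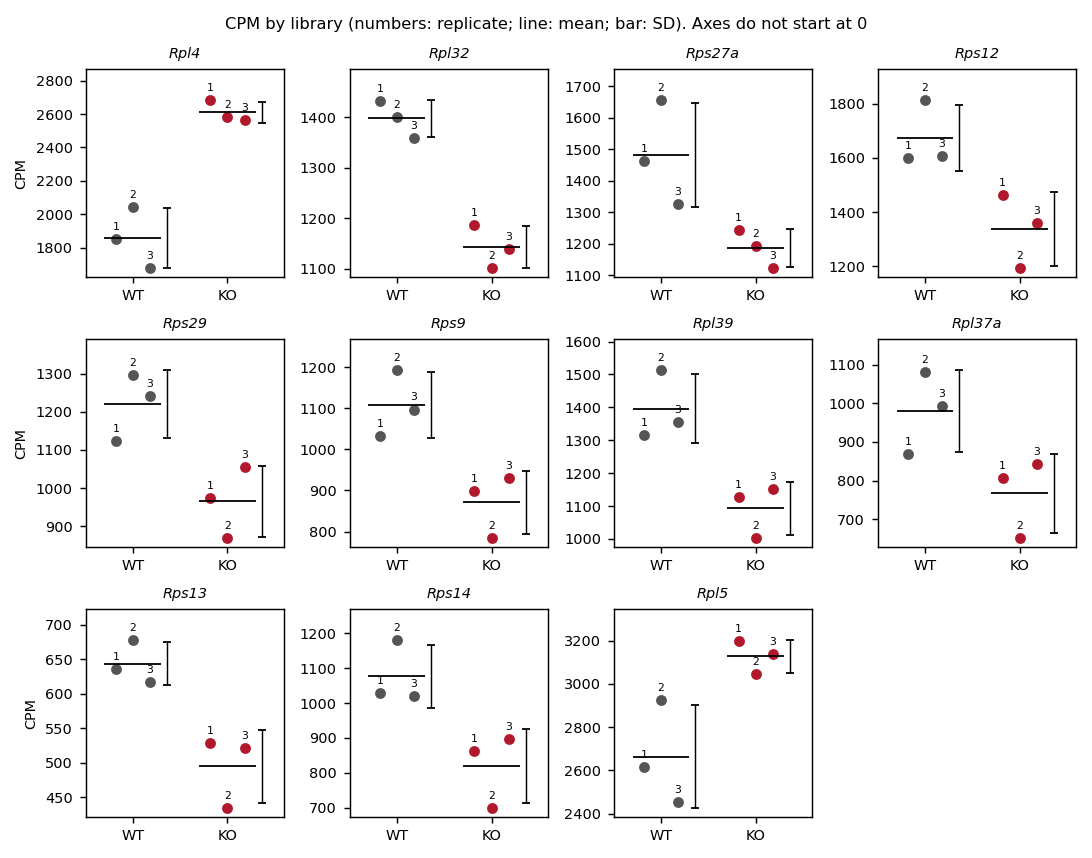
CPM of 10 called members and of Rpl5 in each library, with the replicate number above each point, the mean as a line and the SD as a bar; the axes do not start at 0. Rpl4 and Rpl5 lie higher in the 3 KO libraries, the other 9 genes lie lower, and KO replicate 2 is the lowest library in 8 of those 9.

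These 10 lower calls were weaker than that of Rpl4. All 10 were lost without WT replicate 2 and all 10 without KO replicate 2, where the highest adjusted p of a single gene was 0.245 (Rpl37a, edgeR). WT replicate 2 also had the largest summed CPM of the members, 109071 against 98953 and 99262 in the other WT libraries, and KO replicate 2 the smallest, 90996 against 98742 and 100926. With limma on log2(RPKM + 1), 0 members were lower, where 1.93% of all genes were, and Rps14 stood at -0.42 with an adjusted p of 0.0589. DESeq2 called 20 members lower and 3 higher, where 6.95% and 7.72% of all genes were. Scaling by library totals alone called 5 lower and 4 higher, where 4.11% and 7.55% of all genes were. Rps14, Rps13, Rps9 and Rpl39 each kept their call without any 1 of the other 4 libraries.

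A ratio of the large to the small subunit separated the groups in every library, and unlike a level it does not move with library scaling. The summed CPM of the large subunit divided by that of the small was 1.541, 1.503 and 1.492 in WT replicates 1, 2 and 3 and 1.635, 1.648 and 1.614 in KO replicates 1, 2 and 3. The means were 1.51 ± 0.0257 and 1.63 ± 0.0174 (SD, n = 3 each), a difference of 0.1201. Without any 1 library the difference was 0.110 to 0.135. Summed RPKM, which weights the genes by length, gave 1.31 to 1.35 in WT and 1.41 to 1.44 in KO. As a sum over chosen members the ratio has no p-value here.

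Single large subunit genes contributed to this ratio but did not make it up. Without Rpl4 the ratio was 1.45 to 1.49 in WT and 1.55 to 1.57 in KO, a difference of 0.0946. Without Rpl4 and Rpl5 it was 1.39 to 1.43 in WT and 1.46 to 1.48 in KO, a difference of 0.0748, and the groups still did not overlap. By gene, the median log2 fold change was -0.06 for the 48 large subunit genes tested and -0.19 for the 33 of the small subunit. With the transcript length offset these medians were 0.12 and 0.03. Every KO library was below every WT library for 16 of 33 small subunit genes and above for 0, where 14.5% and 15.7% of all genes were. For the large subunit these counts were 9 and 6 of 48, near the shares of all genes. Among 833 other genes with transcripts under 1000 nt they were 185 and 48. The large subunit median stayed above the small subunit median by 0.09 to 0.19 in each of the 15 other settings.

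**Figure D3:**
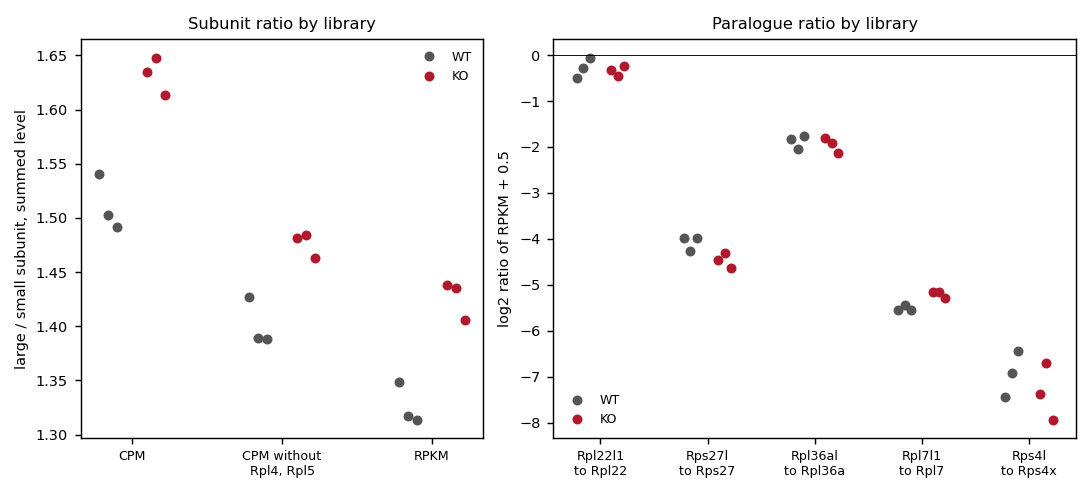
Left, summed level of large subunit genes divided by that of small subunit genes in each library, from CPM, from CPM without Rpl4 and Rpl5, and from RPKM; right, log2 ratio of a paralogue to its relative from RPKM + 0.5; grey points are WT and red points KO, and the left axis does not start at 0. The subunit ratios of the 3 KO libraries lie above those of the 3 WT libraries in each version, and among the paralogues Rpl7l1 lies higher and Rps27l lower in KO without overlap.

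The length of the coding sequence moved with the fold change among the members. Of 77 members with a mean of at least 50 CPM, the 27 with a coding length of at most 405 nt had a median log2 fold change of -0.21, and 24 of them were below 0. The 26 members longer than 580 nt had a median of -0.06, with 15 below 0, and the 24 in between had a median of -0.03. Rpl4, at 1257 nt, is the member with the longest coding sequence of those 77. Across these members Pearson's r was 0.41 and Spearman's rho 0.41, given as a description because the genes share the same libraries. Over all 12137 tested genes with a length, taken there as transcript length, these values were 0.06 and 0.11. By decile of transcript length, the median log2 fold change of these genes was -0.22 in the shortest decile (median 860 nt). It was 0.11 in the longest (median 7538 nt). Of 833 other genes with transcripts under 1000 nt, 8.04% were lower and 2.04% higher, with a median of -0.27. With an offset for transcript length, fitted in each library, 10 members were higher and 1, Rps15a, was lower, where 5.56% and 4.9% of all genes were. Rpl4 was among the 10, at 0.55 (edgeR, adjusted p = 0.000127), with Rpl5, Rpl12, Rpl17, Rpl19, Rpl23a, Rpl29, Rpl36 and Rps15, and none of the 10 lower calls remained. The offset took Rps15a at an annotated transcript of 5179 nt, where its coding length is 390 nt, so it was adjusted as a long gene. The 2 deposited tables implied 3840 nt for it in WT. Rps15a stood at -0.30 without the offset and at -0.36 with it.

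At like lengths the small subunit median was again below that of the large subunit, with no test of the difference. Among the shortest members the median log2 fold change was -0.16 for 16 large subunit genes and -0.28 for 11 small subunit genes. Among those of middle length it was -0.02 for 14 large and -0.16 for 10 small subunit genes. Among the longest it was 0.01 for 16 large and -0.13 for 10 small subunit genes. The median coding length was 480 nt for the large subunit and 453 nt for the small. With the length offset the difference of the subunit medians was 0.09, against 0.13 without it.

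**Figure D4:**
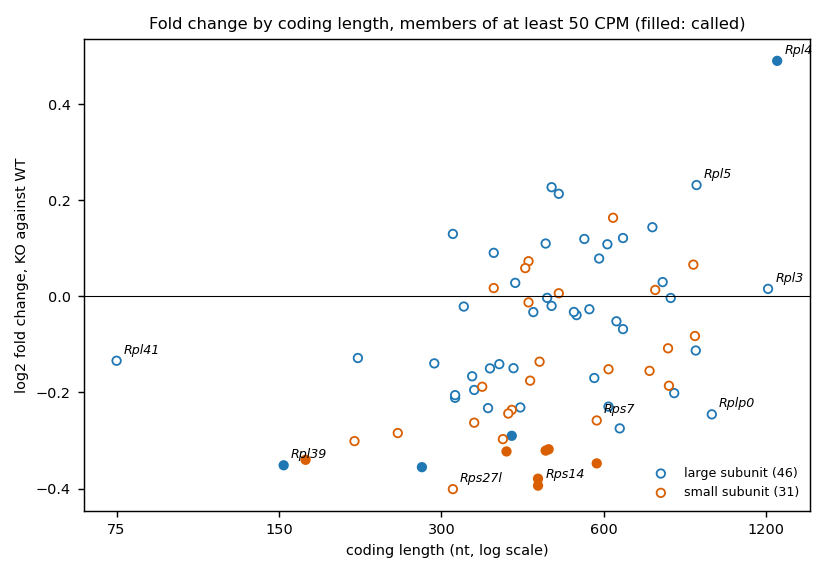
Log2 fold change of KO against WT by coding length on a log scale, for the 77 members with a mean of at least 50 CPM, by subunit; filled points were called. Most members with short coding sequences lie below 0, and Rpl4 stands at the upper right.

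The ribosomal stalk, where the proteins Rplp1 and Rplp2 sit on Rplp0 and recruit elongation factors, had negative values in all 3 genes, and none passed the test. Rplp0 had 2903, 3198 and 2656 CPM in WT and 2612, 2254 and 2521 CPM in KO, without overlap (log2 fold change -0.25, SE 0.09, edgeR adjusted p = 0.0839). Rplp2 stood at -0.19 (edgeR, adjusted p = 0.177) without overlap and Rplp1 at -0.17 (edgeR, adjusted p = 0.274) with overlap. Like Rpl4 and Rpl5, Rplp0 is among the longer members.

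Of 16 members known from Diamond-Blackfan anaemia or the 5q minus syndrome, 15 were tested, and Rps14 and Rps29 were lower. This share of 13.3% is close to the 12.2% of all members, against 4.99% of all genes. Their median log2 fold change was -0.23, with 12 of 15 below 0, beside -0.14 and 58 of 82 for all members. Rps19, the gene most often mutated in Diamond-Blackfan anaemia, had 889, 1059 and 880 CPM in WT and 887, 849 and 1068 CPM in KO, so the groups overlapped (log2 fold change -0.01, SE 0.11, edgeR adjusted p = 0.960). Rps28 at -0.30 (edgeR, adjusted p = 0.0540) and Rps7 at -0.26 (edgeR, adjusted p = 0.0664) had no overlap and did not pass. Rps24, Rps26 and Rpl15 had values of -0.24, -0.26 and -0.23, and Rpl35a, Rpl18 and Rps10 values of -0.02, -0.03 and 0.01.

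Rpsa and Rps6 were the most counted members of the small subunit. Rpsa, which encodes the laminin-receptor-related protein uS2, had 4550 ± 269 CPM in WT against 4296 ± 251 in KO (SD, n = 3 each). Rps6, the target of S6 kinases downstream of mTORC1, had 3025 ± 250 and 3053 ± 204 CPM. In both genes the groups overlapped. The difference between the means was smaller than either SD for Rps6, and lay between the SD of KO and that of WT for Rpsa. Per length, in RPKM, the highest members in WT were Rps28 at 7462 ± 689 and Rpl39 at 7376 ± 671. In KO they stood at 6260 ± 1009 and 5812 ± 510, and Rplp1 was highest at 6320 ± 547. The 2 deposited tables implied lengths of 170 nt for Rps28 and 186 nt for Rpl39 in WT, against annotated transcripts of 392 and 612 nt.

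Several ribosomal proteins have a paralogue, and 5 of 8 such pairs passed the filter on low counts in both genes. These 5 include Rps27l with Rps27, although Rps27 had few counts. Rpl7l1 differs from Rpl7 in that its protein acts in ribosome assembly. The log2 ratio of Rpl7l1 to Rpl7, from CPM + 0.5, was -4.00, -3.83 and -3.98 in WT and -3.61, -3.58 and -3.57 in KO. The ratio was higher in KO by 0.35 with no overlap, at an exact permutation p of 0.1, the smallest that 3 libraries against 3 allow, and 0.5 adjusted over the 5 pairs. By RPKM, Rpl7l1 was 2.08% to 2.23% of the pair in WT and 2.48% to 2.72% in KO. Neither gene passed alone: Rpl7l1 was at 0.14 and Rpl7 at -0.20.

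Rpl22l1, a paralogue whose level is known to be held down by Rpl22, was the one found close to its relative in RPKM. In CPM, which is not scaled by length, Rpl22l1 had 109 ± 16.7 and Rpl22 916 ± 65.4 in WT (SD, n = 3 each). The 2 deposited tables implied lengths of 270 nt for Rpl22l1 and 1881 nt for Rpl22 in WT. Their annotated transcripts have 538.5 and 2051 nt, so the share of Rpl22l1 depends on the lengths behind the RPKM. By RPKM Rpl22l1 was 41.4%, 45.1% and 49.1% of the pair in WT and 44.3%, 42.3% and 45.9% in KO. The log2 ratio from CPM + 0.5 differed by -0.08 with overlap (exact permutation p = 0.5, adjusted 0.75). Rpl36al was 19.5% to 22.7% of its pair with Rpl36a in WT and 18.7% to 22.2% in KO, a difference of -0.00249 in the log2 ratio (exact permutation p = 0.9, adjusted 0.9). Rps4l, the autosomal relative of the X-linked Rps4x, was at most 1.13% of its pair, and the groups overlapped (-0.46, exact permutation p = 0.5, adjusted 0.75).

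Rps27l, a p53 target in other cells, had 87.9, 71.8 and 84.5 CPM in WT and 59.6, 62.6 and 62.6 CPM in KO, without overlap. It did not pass the test (log2 fold change -0.40, SE 0.17, edgeR adjusted p = 0.131). Its relative Rps27 had 3 to 27 counts in a library, so their ratio was read from RPKM, where Rps27l was 4.95% to 5.99% of the pair in WT and 3.89% to 4.81% in KO. The RPKM log2 ratio was lower in KO by 0.39 without overlap (exact permutation p = 0.1, the smallest possible, adjusted 0.25). From the counts the difference was -0.46 with overlap (exact permutation p = 0.6, adjusted 0.75). Rpl39l and Rpl3l, relatives used in testis and in muscle, were close to silent. Rpl39l had 6 counts in WT replicate 3 and Rpl3l had 23 in WT replicate 1 and 1 in KO replicate 3, and both were at 0 in the other libraries. Rpl10l, the testis relative of Rpl10, and Rps27rt had 0 counts throughout.

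For a few members the 2 deposited tables gave different pictures. Rpl26, which binds p53 mRNA besides its place in the ribosome, had 0 counts in all 6 libraries, yet its RPKM was 829 to 1647 in WT and 673 to 1044 in KO. Rpl34 had 10 to 64 counts in a library and an RPKM of 1379 to 1925, and Rps27 an RPKM of 4294 to 5009. Rpl30 had 8 to 84 counts and an RPKM of 57.9 to 145. The count values of these genes therefore say nothing about their level. In RPKM none of the 4 passed (limma on log2(RPKM + 1), adjusted p of 0.381 for Rpl26, 0.377 for Rpl34, 0.769 for Rps27 and 0.355 for Rpl30).

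Rps3a1 differed between the tables in its comparison. In counts it had 1563, 1788 and 1729 CPM in WT and 1606, 1404 and 1455 CPM in KO, a log2 fold change of -0.19 (edgeR, adjusted p = 0.205). In RPKM it had 387, 245 and 268 in WT and 1033, 1166 and 761 in KO, and was called higher by 1.72 (limma on log2(RPKM + 1), adjusted p = 0.00404). Rpl4 and Rps3a1 were the 2 members called higher by that test, where 2.85% of all genes were. For Rps3a1 the 2 deposited tables implied a length of 5827 nt in WT and 1588 nt in KO, against an annotated transcript of 977 nt. The RPKM difference of Rps3a1 thus came with a change in implied length, and its source was not tested. The sources used here do not say how reads that match several genes were shared out, and ribosomal protein genes have many near-identical pseudogenes, so values of single members carry that uncertainty.

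**Figure D5:**
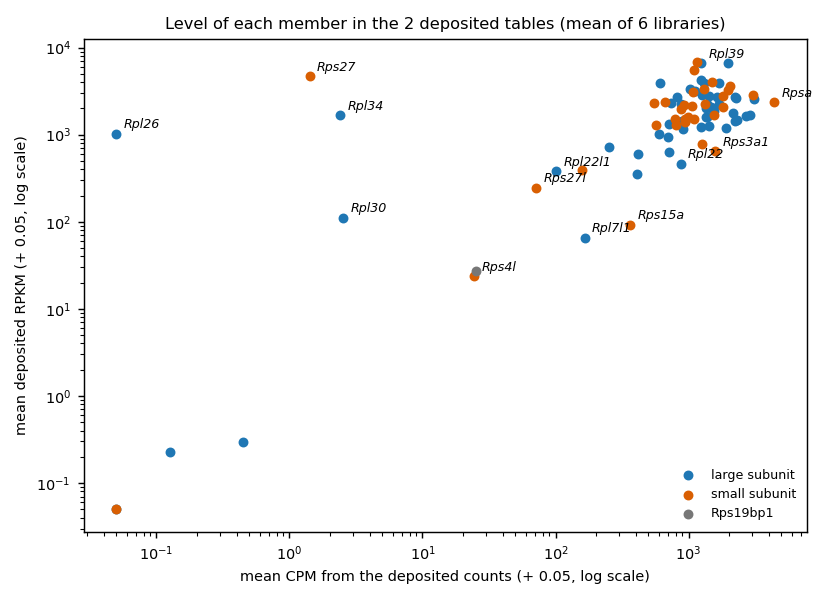
Mean CPM from the deposited counts against mean deposited RPKM over the 6 libraries for the 87 members, each with 0.05 added and both axes on a log scale. Rpl26, Rpl34, Rps27 and Rpl30 lie far to the left of the other members of like RPKM.

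Genes that work with the ribosomal proteins were counted in lists. Of the ribosomal proteins with other symbols, Fau and Gnb2l1 had log2 fold changes of -0.07 and -0.01, and neither passed (edgeR, adjusted p of 0.694 and 0.975). Fau encodes a fusion with a ubiquitin-like protein, and Gnb2l1 encodes the scaffold Rack1. Of 19 elongation factor and other TOP genes, Eif4b and Npm1 were higher and Tpt1 and Eif3e lower, with a median of -0.03. These calls were 10.5% in each direction, against 6.41% higher and 4.99% lower over all genes. Eif4b, an initiation factor that supports the helicase Eif4a, had 509, 479 and 509 CPM in WT and 729, 748 and 661 CPM in KO (log2 fold change 0.52, edgeR adjusted p = 0.00141). Tpt1, another abundant TOP gene, had 3253 ± 262 CPM in WT against 2675 ± 209 in KO (SD, n = 3 each; edgeR, adjusted p = 0.0412).

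Ribosome assembly genes act mostly in the nucleolus, where the subunits are put together. Of 49 genes in that list, 20 were higher (40.8%, against 6.41% of all genes) and 1, Nop10, was lower (2.04%, against 4.99%), with a median log2 fold change of 0.38 and 42 above 0. Ncl, the nucleolar protein nucleolin, had 2581, 3056 and 2711 CPM in WT and 4863, 4631 and 4416 CPM in KO, a log2 fold change of 0.74 (SE 0.08). Mdn1, the large ATPase that strips assembly factors from the pre-60S particle, had 194, 252 and 272 CPM in WT and 473, 508 and 418 CPM in KO, a log2 fold change of 0.96 (SE 0.13). The count of higher assembly genes was 13 without KO replicate 2 and 14 to 17 without any 1 of the other libraries. It was 19 with the length offset and 10 with limma on log2(RPKM + 1), where 5.56% and 2.85% of all genes were higher. Nop10 lost its call without WT replicate 2 or KO replicate 2. Of 77 mitochondrial ribosomal protein genes, Mrps26 was higher and Mrpl33 and Mrps33 lower, with a median of -0.07. These shares of 1.3% and 2.6% were below the 6.41% and 4.99% of all genes.

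Some members carry genes of small nucleolar RNAs, which guide the modification of ribosomal RNA, in their introns. Among 30 such hosts, a group chosen after values were seen, 1 was higher (3.33%) and 5 were lower (16.7%), with a median log2 fold change of -0.10. Over all members 1.22% were higher and 12.2% lower, and over all genes 6.41% and 4.99%. Among 51 tested members that host none, 0 were higher and 5 lower, with a median of -0.14. Rpl4 holds 5 annotated small nucleolar RNA genes (GENCODE M21).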

How the data were processed

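The members and lists were chosen with earlier results of these data known. Per the labels' protocols, total RNA at very low input went into a stranded library kit. The authors deposited whole-number read counts per gene, with no normalization, and an RPKM table (reads scaled by length and library size). TopHat, Cufflinks and the mm9 build are named, per the submitters' processing notes. The sources used here do not give the counter, annotation or strand setting.

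Counts were tested with edgeR 4.0.16 in R 4.3.3 (TMM, filterByExpr, robust quasi-likelihood F test, group only) on all genes, with Benjamini-Hochberg adjustment over 12204 genes. CPM used TMM library sizes. The SE is the absolute log2 fold change over the root of its F statistic. RPKM were tested with limma 3.58.1 on log2(RPKM + 1), a scale that understates changes of low genes. DESeq2 1.42.0 was an alternative. Paralogue ratios used exact two-sided permutation tests. The steps were tested on simulated data. Lengths and small nucleolar RNA genes came from GENCODE M21, matched by symbol.

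Named members were those called, the 3 most counted per subunit, the 5 highest and 5 lowest fold changes, the paralogues, the stalk, Rpl5 with Rpl11, and the anaemia genes. Others named by low counts or a table difference (Rpl30, Rps3a1) were chosen after their values were seen. Replicate pairs differed by a chi-square of 19.5 to 67.6 per degree of freedom over the members, so no pair agreed within sampling noise. Some members that this rule names are not reported here.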

Additional observations from a re-analysis of the deposited data

How the results depend on the processing

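Rpl4 kept its call in all settings run, and the lower calls did not. With 1 library left out, 1 to 2 members were higher and 0 to 8 lower, 1 to 2 large subunit genes were higher and 0 to 3 lower, 0 to 7 small subunit genes were lower, and 448 to 717 of all genes were higher and 264 to 546 lower. DESeq2 called 3 members higher (all large) and 20 lower, 6 large and 14 small. Upper quartile scaling called 11 small subunit genes lower. Scaling by library totals called 4 higher (all large) and 5 lower, 1 large and 4 small. Limma on log2(RPKM + 1) or log2(RPKM + 0.1) called 2 higher, of which 1 is a small subunit gene, and 0 lower in either subunit. Over all genes the former called 348 higher and 235 lower. With the transcript length offset 10 were higher, 8 large and 2 small, and 1 lower, with 0 in the large subunit and 1 in the small. Under that offset Rpl32 stood at 0.0143 (edgeR, adjusted p = 0.945) and Rps29 at 0.0308 (edgeR, adjusted p = 0.868), on the other side of 0. The large to small ratio differed by 0.0946 without Rpl4 and 0.0748 without Rpl4 and Rpl5, both chosen after seeing the data. Replicate numbers did not pair the libraries (correlations of same-numbered libraries 0.015, 0.012 and -0.007), and the replicate block left 3 members lower, 1 large and 2 small (Rpl39, Rps13 and Rps14). The cause of these shifts was not tested. Under the length offset the median log2 fold change turned to 0.08 for the members, 0.12 for the large and 0.03 for the small subunit. Rpl26, Rpl34, Rps27 and Rpl30 could not be read from the counts, although their RPKM show reads in the same libraries.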
